A study of Homo sapiens with 6 samples.

Results

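The genes described here encode the subunits of cAMP-dependent protein kinase (PKA), its inhibitor peptides and 2 phosphodiesterases that break down its activator, in C4-2B prostate cancer cells before and after selection for growth in enzalutamide. They are 10 of the 58024 genes of the expression table: the catalytic subunits *PRKACA* and *PRKACB*, the regulatory subunits *PRKAR1A*, *PRKAR1B*, *PRKAR2A* and *PRKAR2B*, the inhibitors *PKIA* and *PKIB*, and the phosphodiesterases *PDE4B* and *PDE4D*. They were looked up by gene symbol, and each symbol matched a single entry. The set was proposed with results of these data in view, and *PRKACB* was chosen by its much lower FPKM in the resistant cells, so its values are given as a description without a test. C4-2B is an androgen receptor positive line derived through C4-2 from LNCaP cells that had been grown in castrated nude mice. RNA-Seq covered 6 libraries, 3 from the C4-2B parental line and 3 from its enzalutamide resistant derivative. The derivative was exposed to enzalutamide, an androgen receptor antagonist, at concentrations raised from 1 to 20 µM over at least 6 months, and was afterwards kept in 5 µM. The surviving cells were pooled, so that they stand for a single selected population. Parental cells were passaged in parallel with dimethyl sulfoxide, given as 1% in the series design and as a lower share in the methods. RNA was taken from cells under 10 µM enzalutamide, and the wording does not settle whether this held for the parental cells too. Nothing states that the 3 libraries of a group came from separate cultures, so the p values below measure the spread between libraries, which may be technical.

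PKA is a tetramer in which a pair of regulatory subunits holds a pair of catalytic subunits inactive. Binding of cyclic AMP to the regulatory subunits releases or unlocks the catalytic subunits, which then phosphorylate serine and threonine residues on targets such as the transcription factor CREB. Cyclic AMP is made by adenylyl cyclases downstream of G protein coupled receptors and is hydrolyzed by phosphodiesterases, while A-kinase anchoring proteins place the holoenzyme at particular sites and PKI peptides block free catalytic subunits. In prostate cancer cells, raised cyclic AMP is known for neuroendocrine differentiation and for crosstalk with the androgen receptor.

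The estimated depth of the libraries ranged from 13500000 to 20500000 reads, so 1 read on a transcript 2000 bases long adds 0.0271 to 0.0411 FPKM (fragments per kilobase of transcript relative to all mapped fragments). The luminal identity of the cells was checked with 10 markers, which were all expressed in both groups. Their summed level ranged from 4360 to 5122 FPKM in the parental and from 1311 to 1415 FPKM in the resistant libraries, and *KLK3*, which encodes prostate specific antigen, accounted for most of the gap, at 2556 against 44 FPKM. Summed levels of 7 neuroendocrine markers ranged from 7.07 to 11.3 FPKM in the parental and from 189 to 211 FPKM in the resistant libraries, with *INSM1* near 0 in both. Immune markers summed to at most 2.23 FPKM and endothelial markers to at most 1.14 FPKM in any library. The sum of 6 fibroblast markers ranged from 8.04 to 10.9 FPKM in the parental and from 8.34 to 15.0 FPKM in the resistant libraries, where *DCN* was at 3.63 to 4.35 FPKM after being listed at 0 in the parental ones, *LUM* was higher and *PDGFRB* lower, and *COL1A2* was near 0 in both. The part of these markers in the results below was not tested. In bulk RNA, fewer cells expressing a gene and less RNA of it per cell cannot be told apart.

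Sequence upstream of the members is shown first, as a description. RefSeq (GRCh38.p14) gave 37 annotated start sites for 9 of the members and none for *PKIA*. The 250 bases before each start were searched on both strands for the full cAMP response element, TGACGTCA, for its half-site, TGACG, which the full element contains, and for the androgen receptor half-site AGAACA. On the opposite strand the half-site of the first reads CGTCA. The full element was found before 1 member start, in *PRKAR1A*, against 1.65% of all 35116 annotated starts. The cAMP half-site was found before 8 of the 37 member starts, in 6 genes, a share close to the 21.2% of all starts. Those genes include members with lower, higher and similar levels, and it was not found before *PRKAR2A*, *PRKAR2B* or *PDE4B*. The androgen receptor half-site was found before 6 of the 37 starts, in 4 genes, against 12.4% of all starts. Starts of a gene can overlap and are not independent. Capitals mark the half-site on either strand or, in *PRKAR1A*, the full element, stretches annotated as exons were left out except around the *PRKAR1A* site, and each line reads 5′ to 3′ towards the gene. The lines hold *PRKACB* (chr1:84077962-84078061, plus strand, from −117 to −18 of the start, with its half-site further upstream, at −130), *PRKACA* (chr19:14117763-14117886, minus strand), *PKIB* (chr6:122471808-122471916, plus strand), *PDE4D* (chr5:59587626-59587875, minus strand, 1 of 8 starts) and the site in *PRKAR1A* (chr17:68512370-68512399, plus strand).
PRKACB: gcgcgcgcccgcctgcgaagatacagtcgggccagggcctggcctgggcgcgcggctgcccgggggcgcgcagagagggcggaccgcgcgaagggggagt
PRKACA: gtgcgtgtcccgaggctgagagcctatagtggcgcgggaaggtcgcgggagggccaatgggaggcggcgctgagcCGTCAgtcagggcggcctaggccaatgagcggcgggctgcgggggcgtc
PKIB: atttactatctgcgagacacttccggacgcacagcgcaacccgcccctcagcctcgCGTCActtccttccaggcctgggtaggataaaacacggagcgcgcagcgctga
PDE4D: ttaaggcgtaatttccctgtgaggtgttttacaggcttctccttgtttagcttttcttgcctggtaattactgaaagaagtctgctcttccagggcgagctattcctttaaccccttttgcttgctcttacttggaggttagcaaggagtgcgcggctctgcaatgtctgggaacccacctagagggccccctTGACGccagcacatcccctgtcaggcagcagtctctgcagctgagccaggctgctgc
PRKAR1A: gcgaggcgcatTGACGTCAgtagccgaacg
These matches are letters in a window and do not show that a factor was bound there, and the table gives a value per gene and not per start site.

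Among the catalytic subunits, *PRKACB* was lower in the resistant cells and *PRKACA* did not pass the test. *PRKACB* encodes the beta isoform of the kinase and lies on chromosome 1 (GRCh38, 84078062 to 84238498, plus strand). Parental libraries held it at 303, 311 and 329 FPKM, and resistant libraries at 19, 19.1 and 20.0 FPKM. All parental values were far above all resistant values, and the values within a group lay close together. The means were 314 ± 13.4 and 19.3 ± 0.536 FPKM (SD, n = 3 each), 16.2-fold lower in the resistant cells, or −4.01 ± 0.066 (SE) on the log2(FPKM + 0.1) scale used for all log2 values below. In order of parental mean, *PRKACB* stood at place 272 of all genes in the table, and in order of resistant mean at place 6065. Of all 24468 genes tested, 1.24% had a log2 fold change as low or lower. *PRKACA* on chromosome 19 (14091688 to 14118084), which encodes the alpha isoform, measured 46.3, 32.0 and 38.6 FPKM in the parental and 32.9, 29.0 and 35.3 FPKM in the resistant libraries. These groups overlapped, and the log2 fold change of −0.26 (standard error 0.15) was not past the threshold (limma with Benjamini-Hochberg adjustment, adjusted p = 0.224).

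**Figure D1:**
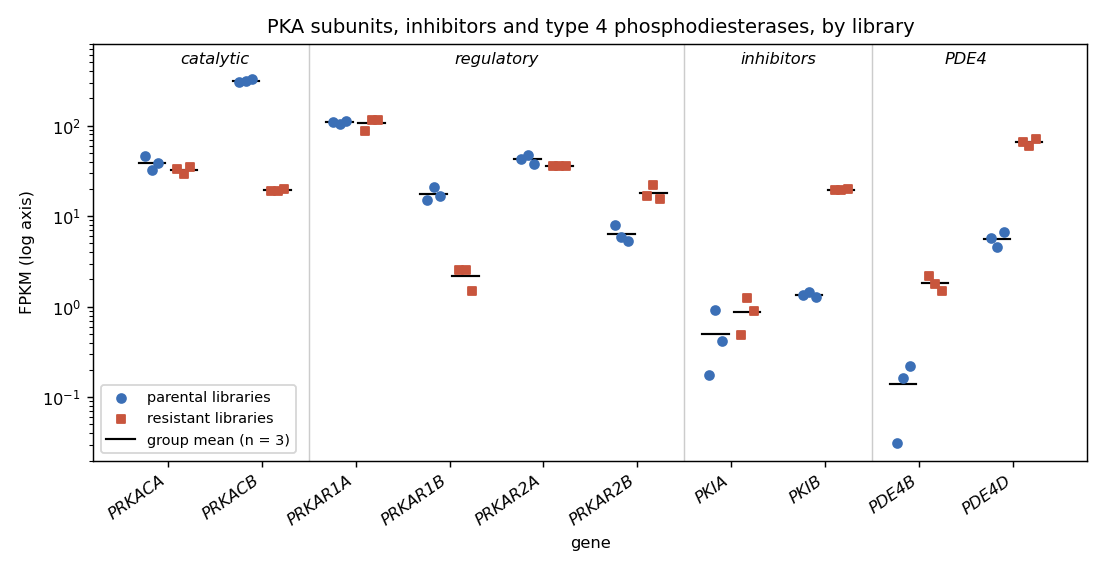
FPKM of the 10 genes (log axis) in each parental (blue circles) and resistant library (red squares), with a black line at each group mean (n = 3). The groups lie apart for *PRKACB*, *PRKAR1B* and, narrowly, *PRKAR2A*, lower in the resistant libraries, and for *PRKAR2B*, *PKIB*, *PDE4B* and *PDE4D*, higher in them, while *PRKACA*, *PRKAR1A* and *PKIA* overlap.

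All 10 genes averaged 0.1 FPKM or more over the libraries and entered the fit, in which *PRKACB* is described and not tested. Of the 9 genes other than *PRKACB*, 4 rose, 1 fell and 4 were not past the threshold at an adjusted p of 0.05. Over all genes tested, 22.1% were called higher and 22.3% lower, 44.4% in all, against 55.6% of these 9. The groups did not overlap for 6 of the 9 genes, 4 of them higher and 2 lower in the resistant cells, against 54.8% of all genes tested, 26.6% higher and 28.1% lower.

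Of the regulatory subunits, *PRKAR1B* fell, *PRKAR2B* rose, and the alpha forms *PRKAR1A* and *PRKAR2A* were not past the threshold. *PRKAR1A* (chromosome 17, 68511780 to 68551319) encodes the widely expressed type I alpha subunit, and measured 110, 103 and 114 FPKM in the parental and 88.0, 117 and 116 FPKM in the resistant libraries. Its groups overlapped, with the lowest value in resistant replicate 0, and its log2 fold change was −0.037 (standard error 0.12, adjusted p = 0.832 from limma with Benjamini-Hochberg adjustment) and 0.097 without that library. *PRKAR1B* (chromosome 7, 549197 to 727650), the type I beta subunit best known from the nervous system, measured 15.0, 21.3 and 16.9 FPKM in the parental and 2.52, 2.52 and 1.49 FPKM in the resistant libraries. It fell 8.13-fold in the means without overlap, or log2 −2.99 ± 0.25 (SE, limma, Benjamini-Hochberg adjusted p = 2.21e-04).

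*PRKAR2A* (chromosome 3, 48744597 to 48847874), the type II alpha subunit, measured 42.8, 47.0 and 37.6 FPKM in the parental and 36.2, 35.7 and 35.9 FPKM in the resistant libraries. All resistant values lay just below the parental ones, but the log2 fold change of −0.23 (standard error 0.098) was not past the threshold (limma, adjusted p = 0.10). Without parental replicate 2 it was −0.32 with an adjusted p of 0.0345 in the same limma fit. *PRKAR2B* (chromosome 7, 107044705 to 107161811), the type II beta subunit known from brain, fat and endocrine tissue, measured 8.08, 5.89 and 5.28 FPKM in the parental and 16.9, 22.3 and 15.3 FPKM in the resistant libraries. It rose 2.83-fold in the means without overlap, or log2 1.49 ± 0.21 (SE, limma, Benjamini-Hochberg adjusted p = 0.00191).

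Summed over the 4 genes, regulatory subunit transcripts were at 176 ± 2.08 FPKM in the parental and at 163 ± 17.5 FPKM in the resistant cells (SD, n = 3 each), with overlapping groups. *PRKAR1A* made up 62.1% ± 3.69 and 65.3% ± 3.77 of this sum. The share of *PRKAR1B* was 10.1% ± 1.77 in the parental and 1.35% ± 0.439 in the resistant cells, and that of *PRKAR2B* was 3.65% ± 0.824 and 11.1% ± 1.82 (SD, n = 3 each). Within type II transcripts alone, *PRKAR2B* took 13.1% ± 2.47 in the parental and 33.4% ± 4.49 in the resistant cells. The shares of *PRKAR1B* and *PRKAR2B* did not overlap between the groups, and neither did that of *PRKAR2B* within type II. The share of *PRKAR1A* overlapped.

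Catalytic subunit transcripts summed to 353 ± 12.8 FPKM in the parental and to 51.7 ± 3.62 FPKM in the resistant cells (SD, n = 3 each). This sum contains *PRKACB* and follows its choice. *PRKACB* was 89.0% ± 2.02 of it in the parental cells and 37.5% ± 1.93 in the resistant cells, in which *PRKACA* was therefore the more abundant catalytic transcript in each library. For each FPKM of catalytic transcript there were 0.497 ± 0.0235 FPKM of regulatory transcript in the parental and 3.17 ± 0.476 FPKM in the resistant cells. These are ratios of transcripts, and protein and kinase activity were not measured in these files.

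**Figure D2:**
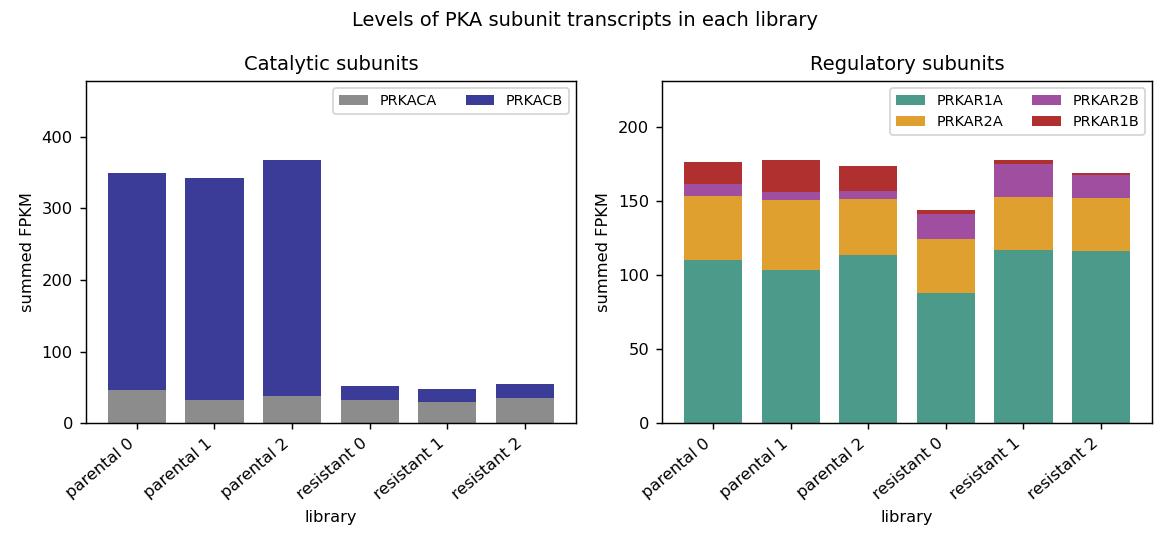
Stacked FPKM of the catalytic (left) and regulatory subunit transcripts (right) in each of the 6 libraries, with bars from 0. The catalytic sum is 343 to 368 FPKM in the parental and 48.0 to 55.2 FPKM in the resistant libraries, while the regulatory sums of the groups overlap and differ in the shares of *PRKAR1B* and *PRKAR2B*.

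Of the inhibitors among the members, *PKIB* rose. PKI peptides bind the free catalytic subunit as pseudosubstrates and carry it out of the nucleus, and *PKIB* (chromosome 6, 122471917 to 122726373) encodes the beta form. It measured 1.34, 1.45 and 1.27 FPKM in the parental and 19.7, 19.4 and 20.0 FPKM in the resistant libraries. The groups were far apart and each was tight, with a 14.6-fold higher mean, or log2 3.77 ± 0.13 (SE, limma, Benjamini-Hochberg adjusted p = 1.04e-05). *PKIA* (chromosome 8, 78516340 to 78605267), the alpha form, measured 0.174, 0.912 and 0.421 FPKM in the parental and 0.487, 1.24 and 0.907 FPKM in the resistant libraries. These low values overlapped and were not past the threshold (log2 fold change 0.82, standard error 0.59, limma adjusted p = 0.309). *PKIA* and *PKIB* together were at 0.00526 ± 0.00139 FPKM for each FPKM of catalytic transcript in the parental cells. In the resistant cells they were at 0.399 ± 0.0270 FPKM (SD, n = 3 each), and this ratio again contains *PRKACB*. It leaves out the third inhibitor, *PKIG*, which is not a member and was at 10.8 FPKM in the parental and 15.5 FPKM in the resistant cells. *PKIG* thus lay above the sum of *PKIA* and *PKIB* in the parental cells (1.85 FPKM) and below it in the resistant cells (20.6 FPKM). The ratio therefore does not stand for all PKI transcripts.

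Both phosphodiesterases rose. Type 4 phosphodiesterases hydrolyze cyclic AMP specifically, and *PDE4D* is a large gene with many start sites on chromosome 5 (58969038 to 60522120, minus strand). It measured 5.73, 4.54 and 6.64 FPKM in the parental and 66.0, 59.9 and 71.6 FPKM in the resistant libraries. The means of 5.64 ± 1.05 and 65.9 ± 5.84 FPKM (SD, n = 3 each) lay 11.7-fold apart, or log2 3.54 ± 0.16 (SE, limma, Benjamini-Hochberg adjusted p = 2.30e-05). *PDE4B* on chromosome 1 (65792514 to 66374579) measured 0.0310, 0.165 and 0.221 FPKM in the parental and 2.18, 1.78 and 1.5 FPKM in the resistant libraries. The groups did not overlap, but the parental values lie near the 0.1 FPKM added before taking logs. Its log2 fold change of 3.09 ± 0.45 (SE, limma, Benjamini-Hochberg adjusted p = 0.00199) changed to 1.3 when 1 FPKM was added before taking logs and to 3.93 when 0.01 FPKM was added.

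Annotated genes on the opposite strand overlap 8 of the members, and for 3 members such a gene averaged 0.1 FPKM or more. The libraries were made with a stranded kit, and whether strand was used in estimating the values is not given in the sources used here. *PRKAR2A-AS1*, antisense to *PRKAR2A*, fell from 5.13 ± 0.645 to 1.18 ± 0.510 FPKM (SD, n = 3 each), below *PRKAR2A* at 42.5 and 35.9 FPKM. *PART1*, a prostate transcript opposite *PDE4D*, rose from 1.57 ± 0.524 to 4.39 ± 0.203 FPKM, beside *PDE4D* at 5.64 and 65.9 FPKM. It was thus well below *PDE4D* in the resistant cells and closer to it in the parental cells. *PART1_2*, an entry of 250 bases within *PART1*, was at 6.48 ± 3.18 FPKM in the parental and 5.44 ± 4.81 FPKM in the resistant cells. Its groups overlapped, and its parental mean lay above that of *PDE4D*. *DNAAF5*, opposite *PRKAR1B*, was at 53.8 ± 6.28 and 47.4 ± 2.92 FPKM and was not past the threshold. It lay above *PRKAR1B*, at 17.7 and 2.18 FPKM, in both groups. The part of these genes in the member values was not tested.

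In order of level, the parental cells had *PRKACB* first, then *PRKAR1A*, then *PRKAR2A* and *PRKACA*, whose libraries overlapped, then *PRKAR1B*. *PRKAR2B* and *PDE4D* followed with overlapping libraries, then *PKIB*, and then *PKIA* and *PDE4B*, which overlapped. The resistant cells had *PRKAR1A* first and *PDE4D* second, followed by *PRKAR2A* and *PRKACA* without overlap. *PKIB*, *PRKACB* and *PRKAR2B* came next, each overlapping its neighbour, then *PRKAR1B* and *PDE4B*, which overlapped, and *PKIA* last.

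The genes whose pattern was most like that of *PRKACB* were named by the distance between their centred log2 values over the 6 libraries, among 12369 protein-coding genes averaging 1 FPKM or more. They were *LY6E* (distance 0.201 log2 units), *GAS6* (0.249), *UTRN* (0.274), *KLHL35* (0.323) and *FADS2* (0.333), against a median distance of 4.90. Since the libraries form 2 groups, likeness here means a similar gap between the groups. *LY6E* was at 105 ± 6.13 FPKM in the parental and 6.73 ± 0.548 FPKM in the resistant cells, and *UTRN*, which encodes utrophin, at 102 ± 5.52 and 6.05 ± 0.627 FPKM (SD, n = 3 each). Of the expressed genes next to *PRKACB* on chromosome 1, *SAMD13* (84298366 to 84389957) fell from 11.1 ± 1.11 to 1.42 ± 0.236 FPKM, or log2 −2.89 ± 0.19 (SE, limma, Benjamini-Hochberg adjusted p = 7.85e-05). *TTLL7* on the other side (83865024 to 83999150) was at 25.7 ± 11.6 and 15.4 ± 6.91 FPKM with overlapping groups and was not past the threshold.

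The other genes of the cyclic AMP pathway were taken as 9 lists with 124 genes, of which 88 entries were tested. Of these, 21 rose and 23 fell, 44 were not past the threshold, and the median log2 fold change was 0.0053, against −0.05 over all genes tested. Of the genes called, 7 higher and 2 lower ones averaged under 0.1 FPKM in the group where they were low, and so passed the filter only through the other group. The called share is close to the 44.4% of all genes. The lists are given below from the receptor down to the nucleus.

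**Figure D3:**
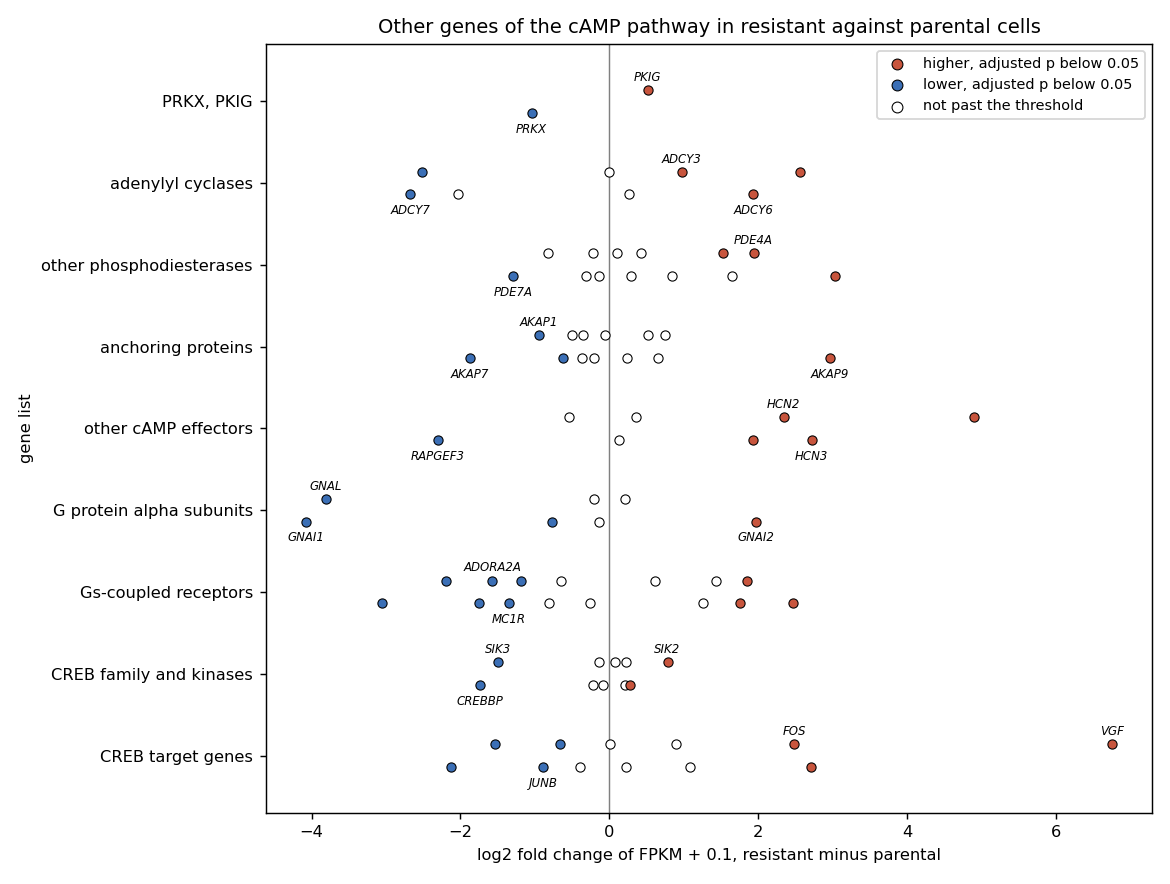
Log2 fold change (resistant minus parental, log2 of FPKM + 0.1) of each tested gene in 9 lists of the cyclic AMP pathway, with genes higher in red, lower in blue and not past the threshold in white, and labels on most of the genes named in the text (vertical offsets only separate points). Among Gs-coupled receptors, 6 of the 15 tested genes were lower and 3 higher, against 22.3% and 22.1% of all genes, and *VGF* among the CREB targets lies farthest to the right, at 6.76.

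Receptors that couple to the stimulatory G protein were low in sum, at 64.8 to 68.7 FPKM in the parental and 24.8 to 28.6 FPKM in the resistant libraries. Of 36 entries, 15 were tested, 6 fell and 3 were called higher. *ADORA2A*, an adenosine receptor, fell from 10.3 ± 0.752 to 3.40 ± 0.332 FPKM, and *MC1R*, the melanocortin receptor, from 13.4 ± 2.01 to 5.19 ± 0.320 FPKM. The receptors called higher, *GLP1R* (listed at 0 in each parental library), *GIPR* and *PTH1R*, stayed below 1 FPKM in the mean of either group, and *GLP1R* and *GIPR* passed the filter on low values only through the resistant libraries. The number of receptors called higher was 0 with a filter at 1 FPKM and 1 without parental replicate 0, parental replicate 2, resistant replicate 0 or resistant replicate 2.

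Among G protein alpha subunits that act on the cyclases, 1 rose and 3 fell of 7. *GNAS*, which stimulates them, was at 572 FPKM in the parental and 522 FPKM in the resistant cells and was not past the threshold. Of the inhibitory subunits, *GNAI1* fell from 28.9 ± 2.63 to 1.81 ± 1.08 FPKM (log2 fold change −4.08, standard error 0.40). *GNAI3* fell from 6.67 ± 0.162 to 3.87 ± 0.144 FPKM. *GNAI2* rose from 24.8 ± 2.53 to 97.3 ± 2.33 FPKM (log2 fold change 1.97, standard error 0.093), and *GNAO1* and *GNAZ* were not past the threshold. *GNAL*, a stimulatory subunit of olfactory and striatal neurons, fell from 2.24 ± 0.504 to 0.0674 ± 0.0372 FPKM, and its log2 fold change of −3.80 was −1.59 with a pseudocount of 1 FPKM. Of the adenylyl cyclases, 8 of 10 were tested, 3 rose and 2 fell. *ADCY6* rose from 18.1 ± 2.45 to 69.2 ± 4.29 FPKM (log2 fold change 1.94) and *ADCY3* from 22.4 ± 1.10 to 44.1 ± 3.38 FPKM (0.97), while *ADCY7* fell from 5.73 ± 0.334 to 0.820 ± 0.161 FPKM (−2.68). The summed level of the cyclases ranged from 57.1 to 62.4 FPKM in the parental and from 116 to 132 FPKM in the resistant libraries.

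Of the other phosphodiesterases that hydrolyze cyclic AMP, 13 of 14 were tested, 3 were called higher, 1 fell and 9 were not past the threshold. Of the 3, *PDE1B* (listed at 0 in each parental library) and *PDE7B* passed the filter on low values only through the resistant libraries, and with a filter at 1 FPKM the number was 1. *PDE4A*, of the same type as *PDE4B* and *PDE4D*, rose from 1.53 ± 0.234 to 6.11 ± 0.0433 FPKM (SD, n = 3 each), or log2 1.94 ± 0.19 (SE, limma, Benjamini-Hochberg adjusted p = 3.64e-04). *PDE7A* fell from 19.3 ± 2.04 to 7.95 ± 1.72 FPKM. *PDE4C*, the remaining type 4 gene, was at 0.638 and 1.99 FPKM and was not past the threshold. The list summed to similar levels, 53.6 to 66.1 FPKM in the parental and 54.6 to 66.0 FPKM in the resistant libraries, without *PDE4B* and *PDE4D*.

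Of the A-kinase anchoring proteins, 13 of 17 were tested, 1 rose and 3 fell. *AKAP9*, a large scaffold of the Golgi and centrosome, rose from 27.5 ± 3.5 to 216 ± 15.6 FPKM (SD, n = 3 each), or log2 2.97 ± 0.11 (SE, limma, Benjamini-Hochberg adjusted p = 1.32e-05). *AKAP1*, which anchors PKA at mitochondria, fell from 79.5 ± 6.67 to 41.3 ± 1.61 FPKM, and *AKAP7* from 4.12 ± 0.727 to 1.11 ± 0.470 FPKM. The number of anchoring proteins that rose was 2 without parental replicate 2 or after quantile normalization, and 3 with median-of-ratios size factors. Of the PKA-like kinase *PRKX* and the third inhibitor *PKIG*, *PRKX* fell from 15.5 ± 2.46 to 7.52 ± 1.43 FPKM. *PKIG* was at 10.8 ± 1.77 and 15.5 ± 2.36 FPKM with a limma adjusted p of 0.0499, and this call was lost in 11 of 15 alternatives, among them those without parental replicate 1, parental replicate 2, resistant replicate 0 or resistant replicate 1, in which the adjusted p reached 0.144. *PRKACG*, the third catalytic subunit, was listed at 0 in all libraries.

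Among other proteins that bind cyclic AMP, 8 of 9 were tested, 4 rose and 1 fell. *HCN2* and *HCN3*, which encode pacemaker channels, rose from 1.55 ± 0.0582 to 8.33 ± 1.04 FPKM and from 1.41 ± 0.645 to 9.37 ± 1.64 FPKM (SD, n = 3 each). *RAPGEF3*, which encodes the exchange factor EPAC1, fell from 6.06 ± 0.769 to 1.17 ± 0.346 FPKM, or log2 −2.30 ± 0.25 (SE, limma, Benjamini-Hochberg adjusted p = 6.46e-04).

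In the nucleus, 10 of the 11 genes of the CREB family, its coactivators and the salt-inducible kinases were tested, 2 rose, 2 fell and 6 were not past the threshold. *CREB1* itself was at 41.0 and 38.7 FPKM and was among the last. The coactivator *CREBBP* fell from 83.2 ± 30.8 to 23.9 ± 3.33 FPKM (SD, n = 3 each), with a wide spread in the parental libraries. *SIK3* fell from 18.1 ± 3.52 to 6.45 ± 1.60 FPKM. *SIK2* rose from 6.27 ± 1.55 to 10.7 ± 1.49 FPKM, a call that was lost without parental replicate 0, parental replicate 1, resistant replicate 0 or resistant replicate 2 (limma adjusted p from 0.0605 to 0.0813). The number that rose in this list was 0 when any of these libraries was left out and 1 without resistant replicate 1.

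Of 18 genes known as CREB targets, 12 were tested, 3 rose and 4 fell, with a median log2 fold change of 0.12. *VGF*, a neurosecretory protein, rose from 3.32 ± 0.776 to 363 ± 13.7 FPKM (SD, n = 3 each), or log2 6.76 ± 0.17 (SE, limma, Benjamini-Hochberg adjusted p = 3.76e-06). *FOS* rose from 1.44 ± 0.444 to 8.39 ± 1.44 FPKM. *JUNB*, another immediate early gene, fell from 37.2 ± 2.46 to 20.0 ± 1.70 FPKM. Neuroendocrine markers were higher in the same libraries, with summed levels given above, and their part in the *VGF*, *HCN2* and *HCN3* values was not tested.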

How the data were processed

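Gene level values of 6 libraries were analysed, 3 of C4-2B parental cells and 3 of the enzalutamide resistant derivative. The authors deposited FPKM values, made per their methods by trimming (TrimGalore 0.4.3), alignment to GRCh38 with GENCODE v25 (STAR 2.5.3) and Cufflinks 2.2.1. The submitters' processing notes instead list Trimmomatic 0.27, FastQC 0.10.1 and the mouse build mm10, while all gene identifiers are human. The table names no unit, so FPKM was taken from the methods and the form of the values, and how the libraries were scaled against each other is not given in the sources used here. FPKM holds no counts, so no test on counts was made. Depth was estimated from the worth of 1 read on single-transcript genes 600 to 8000 bases long, with fragments assumed at 200 bases. Positions came from GENCODE v44 (GRCh38), in which 56980 of 58024 identifiers were found.

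The groups were compared in limma 3.58.1 (R 4.3.3, moderated test with a mean-variance trend, two-sided) on log2(FPKM + 0.1) for 24468 genes averaging 0.1 FPKM or more. Benjamini-Hochberg adjustment ran over all of them, with a threshold of 0.05, and the fit was tested on simulated data. Fold changes on this scale understate the change of low genes. Fold values given as ratios of means are of FPKM. Sums and ratios over subunits carry no test. The members, gene lists and tests were chosen with earlier results of these data known. Named genes were all members, up to 3 called genes per list with the smallest adjusted p and a mean of at least 1 FPKM in a group, the expressed neighbours of *PRKACB*, its 5 closest profiles, overlapping genes and luminal markers. *GNAS*, *GNAI3*, *GNAO1*, *GNAZ*, *PDE4C*, *PRKACG*, *CREB1*, *GLP1R*, *GIPR*, *PTH1R*, *PDE1B*, *PDE7B*, *DCN*, *LUM*, *PDGFRB*, *COL1A2* and *INSM1* were named after their values were seen. Certain genes that the rule names are not reported here. Alternatives covered pseudocount, filter, scaling, variance trend, replicate number and each library left out. Python 3.11.15 and matplotlib 3.10.9 were used for tables and figures.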

Additional observations from a re-analysis of the deposited data

How the results depend on the processing

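Under 15 alternatives, 32 of 36 genes taken from the members, lists and neighbours kept their direction and their side of the threshold wherever they were tested. The exceptions were *PKIG* and *SIK2*, which lost their call in 11 and 4 alternatives, *PRKAR2A*, which was called in 2, and *PRKAR1A*, which was never past the threshold. The log2 fold change of *PRKAR1A* was 0.13 after quantile normalization, 0.068 with median-of-ratios size factors and from −0.11 to 0.097 with each library left out, positive without resistant replicate 0. Of the 9 members other than *PRKACB*, 4 were called higher and 1 lower with the replicate number as a block, and with each library left out 4 were higher and 1 to 2 lower. Rescaling to genes of at least 300 bases, which leaves out short non-coding RNAs, gave 2 lower members, since *PRKAR2A* was then past the threshold (limma adjusted p = 0.0315), and moved the median log2 fold change of all genes from −0.054 to −0.171. With this scaling the log2 ratio of the catalytic sums was −2.92 and that of the regulatory sums −0.26, against −2.77 and −0.10 as reported, and with median-of-ratios size factors the values were −2.67 and −0.0015. With each library left out, the catalytic value ranged from −2.82 to −2.72 and the regulatory value from −0.17 to −0.021, the latter without resistant replicate 0. The *PRKACB* log2 fold change ranged from −4.16 to −3.91. Of the pathway genes, 15 to 19 were higher and 21 to 24 lower with a library left out, and 15 were higher and 25 lower under the block. The number of Gs-coupled receptors called higher was 0 under the block and with a filter at 1 FPKM. Same-numbered libraries did not deviate together (correlations from −0.0030 to 0.017 across genes), and not every library correlated best with its own number, so the numbers were not taken to pair the samples. The cause of these shifts was not tested. Low values limit *PDE4B* and *PKIA*, whose parental means were 0.139 and 0.502 FPKM.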
